A study of Astatotilapia calliptera and Pundamilia nyererei and Oreochromis niloticus with 31 samples.

Results

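ERV1-3, ERV1-4, ERV1-7 and ERV1-10 are 4 families of ERV1 endogenous retroviruses in the curated transposable element (TE) annotation of Astatotilapia calliptera (AC). They were chosen because the study counts them among the TE families with strong signs of recent transposition in AC. That classification rests on insertion polymorphism in wild populations and uses no small RNA (sRNA) value. The members were nevertheless chosen here with earlier results of these data known. Each family has 2 entries in the table of sRNA levels, 1 for its internal region and 1 for its long terminal repeat (LTR). The members were therefore 8 entries, ERV1-3_[INT], ERV1-3_[LTR], ERV1-4_[INT], ERV1-4_[LTR], ERV1-7_[INT], ERV1-7_[LTR], ERV1-10_[INT] and ERV1-10_[LTR], of 20 ERV1 entries and 557 TE entries in all. All 8 passed the minimum level used for the tests.

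ERV1 elements are LTR retrotransposons related to gammaretroviruses. The internal region holds the retroviral genes for the structural proteins and the enzymes of the replication cycle, and the LTR on either side of it carries the promoter and other signals for transcription. Recombination between the LTRs of a copy removes the internal region and leaves a solo LTR, so the copy numbers of both parts differ in most genomes. In the animal germline, Piwi-interacting RNAs (piRNAs) guide Piwi proteins to TE transcripts by base complementarity and silence them, and reads of piRNA size that match an element are the usual readout of this pathway.

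The study profiled sRNAs of African cichlid gonads to ask how the piRNA pathway addresses TEs in closely related species. The curated table holds 14 of the 31 libraries analysed: 4 from AC testes, 3 from AC ovaries, 4 from testes of Tropheops sp. 'mauve' (TM), 2 from testes of Maylandia zebra (MZ) and 1 from AC muscle, the somatic sample. All animals were wild type, and pieces of gonad or dorsal muscle were used. AC and TM were kept in tanks with conspecifics, while the MZ fish were captive-bred dominant males from a commercial supplier, so species and source cannot be told apart in comparisons with MZ. Replicates were tissue pieces of like mass from size-matched individuals. Replicates 1 and 3 of TM testes were closer to each other than any other pair of TM libraries, and the values alone do not show whether they come from separate animals. Reads of all 3 species were mapped to the AC genome, so a lower level and poorer mapping in TM or MZ cannot be told apart. The table lists TEs only, and the tissue labels could not be checked against marker genes.

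Levels are on a log2 scale: the authors computed regularised logs (rlog) of the read counts over the 14 libraries, using reads of 24 to 35 nucleotides. The rlog draws low counts towards the mean of all libraries. The file holds no counts. Read numbers given here as rough start from the share of an entry in the linear values of a library. That share was applied to the number of assigned reads in the study's mapping statistics. These read numbers come from rlog values, so they are only approximate, and low ones need not match the counts. They differed widely between tissues: ERV1-4_[LTR] corresponded to roughly 5300 to 7970 reads in AC testes and to roughly 225 to 999 in AC ovaries. Reads from both strands were counted together, and a read with several possible loci was placed at 1 of them at random, so reads shared by related ERV1 copies can be split among entries. Values were not divided by element length or copy number. A difference between an internal region and its LTR is therefore no density, whereas length cancels in the change of that difference between groups.

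Together the 8 entries made up between 1.66% and 2.59% of the linear TE values. The 4 AC testes libraries gave them 2.48%, 2.52%, 2.29% and 2.44%, and the 3 AC ovary libraries gave 1.86%, 2.04% and 2.59%. The share was 2.497%, 2.44%, 2.47% and 2.43% in TM testes and 2.504% and 2.25% in MZ testes. It was lowest in AC muscle, at 1.66% of a total in which another TE entry, NA-DNA-22, took 37.6%. That order does not hold with NA-DNA-22 left out of the total. Muscle then lay above every AC testes and every TM testes library. AC ovaries spanned the values of AC testes, and replicate 3 of the ovaries was the highest of all 14 libraries.

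The total includes the most abundant TE entry, NA-DNA-22. It took 1.45% to 1.85% of the values in AC testes, 9.89% to 24.4% in AC ovaries and 2.21% to 4.70% in TM testes. In MZ testes it took 2.37% and 8.93%, and in AC muscle 37.6%. The share of the members fell as NA-DNA-22 rose within AC ovaries and within TM testes. AC testes showed no such order. The MZ testes library with 8.93% had the higher share of the members, 2.504% against 2.25%. With NA-DNA-22 left out of the total, the order of the members within AC ovaries stayed and that within TM testes was gone. Why the shares differ was not tested. All shares of a library add to the same total. The 12 entries of the other ERV1 families, which the study does not count as recently active, made up 2.48% ± 0.071 in AC testes, 2.56% ± 0.21 in AC ovaries (SD, n = 4 and 3), 2.34% ± 0.015 in TM testes and 2.31% ± 0.061 in MZ testes (SD, n = 4 and 2), with 1.35% in the muscle library. The study itself compared likely active with inactive families and reported lower gonad mRNA of active ERV1 families. Among superfamilies with that mRNA pattern, it named CMC-EnSpm and Maverick as having significantly more piRNAs over active families.

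**Figure D1:**
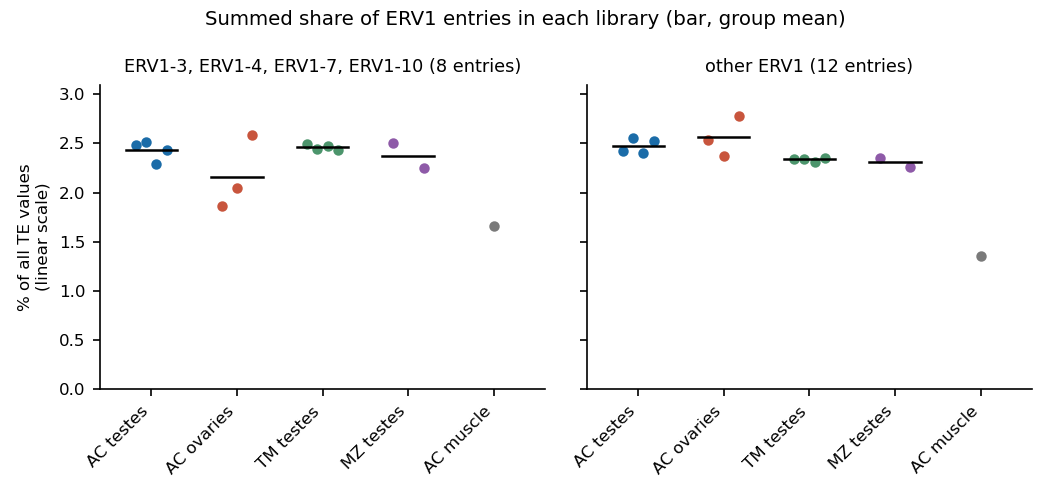
Share of all linear TE values, in percent, taken by the 8 entries of ERV1-3, ERV1-4, ERV1-7 and ERV1-10 (left) and by the 12 other ERV1 entries (right) in each library. Points are libraries and bars are group means. The 8 entries lie between 1.86% and 2.59% in the gonads and at 1.66% in the single muscle library. The total includes NA-DNA-22, which takes 37.6% of the values in muscle. With it left out of the total, muscle is not the lowest library.

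ERV1-4_[INT], the internal region of ERV1-4, varied little between groups. Its rlog values were 13.31, 13.09, 13.20 and 13.22 in AC testes, 13.09, 13.49 and 13.31 in AC ovaries, 13.26, 13.23, 13.28 and 13.28 in TM testes, 13.43 and 13.33 in MZ testes and 13.16 in AC muscle. The gonad libraries spanned 0.40 log2 units, against a median span of 0.80 over all 557 entries. Group means ran from MZ testes down through AC ovaries and TM testes to AC testes, and no tested pair of these groups passed the threshold.

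ERV1-4_[LTR], the repeat that carries the promoter of the same family, separated the AC organs. It stood at 10.88, 10.71, 10.74 and 10.85 in AC testes, 10.27, 10.46 and 10.50 in AC ovaries, 10.93, 10.79, 10.88 and 10.77 in TM testes, 10.71 in both MZ testes libraries and 11.35 in AC muscle. All 10 testes libraries lay above all 3 ovary libraries. AC testes overlapped with TM testes, and MZ testes lay just below the lowest AC testes library.

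ERV1-3_[INT] was the member with the widest spread among the internal entries. Its levels were 13.03, 13.15, 12.80 and 12.79 in AC testes, 13.19, 13.32 and 13.85 in AC ovaries, 13.07, 13.07, 13.07 and 13.04 in TM testes, 13.26 and 12.97 in MZ testes and 12.88 in AC muscle. The ovaries were above all AC testes libraries, with replicate 3 of the ovaries farthest out. The TM libraries were nearly alike, with an SD of 0.018 (n = 4), against 0.18 in AC testes (n = 4).

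ERV1-3_[LTR] was read far less. It had rlog values of 5.59, 5.94, 5.47 and 5.56 in AC testes, 5.51, 5.45 and 5.86 in AC ovaries, 5.42, 5.52, 5.39 and 5.44 in TM testes, 5.61 and 5.82 in MZ testes and 5.60 in AC muscle. These correspond to roughly 136 to 215 reads in AC testes, 8.3 to 40.2 in AC ovaries, 75.2 to 228 in TM testes and 57.5 and 169 in MZ testes. The AC groups overlapped throughout, and all TM libraries were below both MZ libraries. In muscle the value stands for less than 1 rough read, so it is not taken as a measured level.

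ERV1-7_[INT] ranged more between libraries of 1 group than between most group means. It reached 12.45, 12.67, 12.30 and 12.66 in AC testes, 12.997, 12.57 and 12.82 in AC ovaries, 12.63, 12.57, 12.59 and 12.67 in TM testes, 12.71 and 12.10 in MZ testes and 12.95 in AC muscle. Both MZ libraries together enclosed all TM values and all AC testes values. The group order was AC ovaries, TM testes, AC testes and MZ testes, with overlap at each step from AC ovaries to MZ testes.

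ERV1-7_[LTR] had the fewest reads of the 8 entries. Its values were 4.14, 4.13, 4.22 and 4.06 in AC testes, 5.21, 4.21 and 4.24 in AC ovaries, 4.25, 4.29, 4.37 and 4.32 in TM testes, 4.34 and 4.15 in MZ testes and 4.45 in AC muscle. Replicate 1 of the ovaries stood above all other libraries on roughly 6.74 reads, and the other ovary libraries had roughly 9.6 and 13.1 reads. AC testes had roughly 49.8 to 87.1 reads, TM testes 34.6 to 101 and MZ testes 23.9 and 53.1, and the muscle value again stood for less than 1 read.

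The entries of ERV1-10 had the largest differences from muscle of the 8 members. ERV1-10_[INT] was at 12.13, 12.18, 12.19 and 12.08 in AC testes, 12.01, 12.03 and 12.23 in AC ovaries, 12.10, 11.99, 12.11 and 11.97 in TM testes, 11.95 and 11.84 in MZ testes and 13.64 in AC muscle. Its gonad libraries spanned 0.39 log2 units, the narrowest span of the 8 entries.

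ERV1-10_[LTR] followed its internal region in the order of the testes. It was at 10.81, 10.82, 10.78 and 10.91 in AC testes, 10.69, 10.68 and 10.57 in AC ovaries, 10.79, 10.85, 10.74 and 10.77 in TM testes, 10.67 and 10.43 in MZ testes and 12.14 in AC muscle. AC testes and TM testes overlapped, while AC ovaries and MZ testes lay below both.

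**Figure D2:**
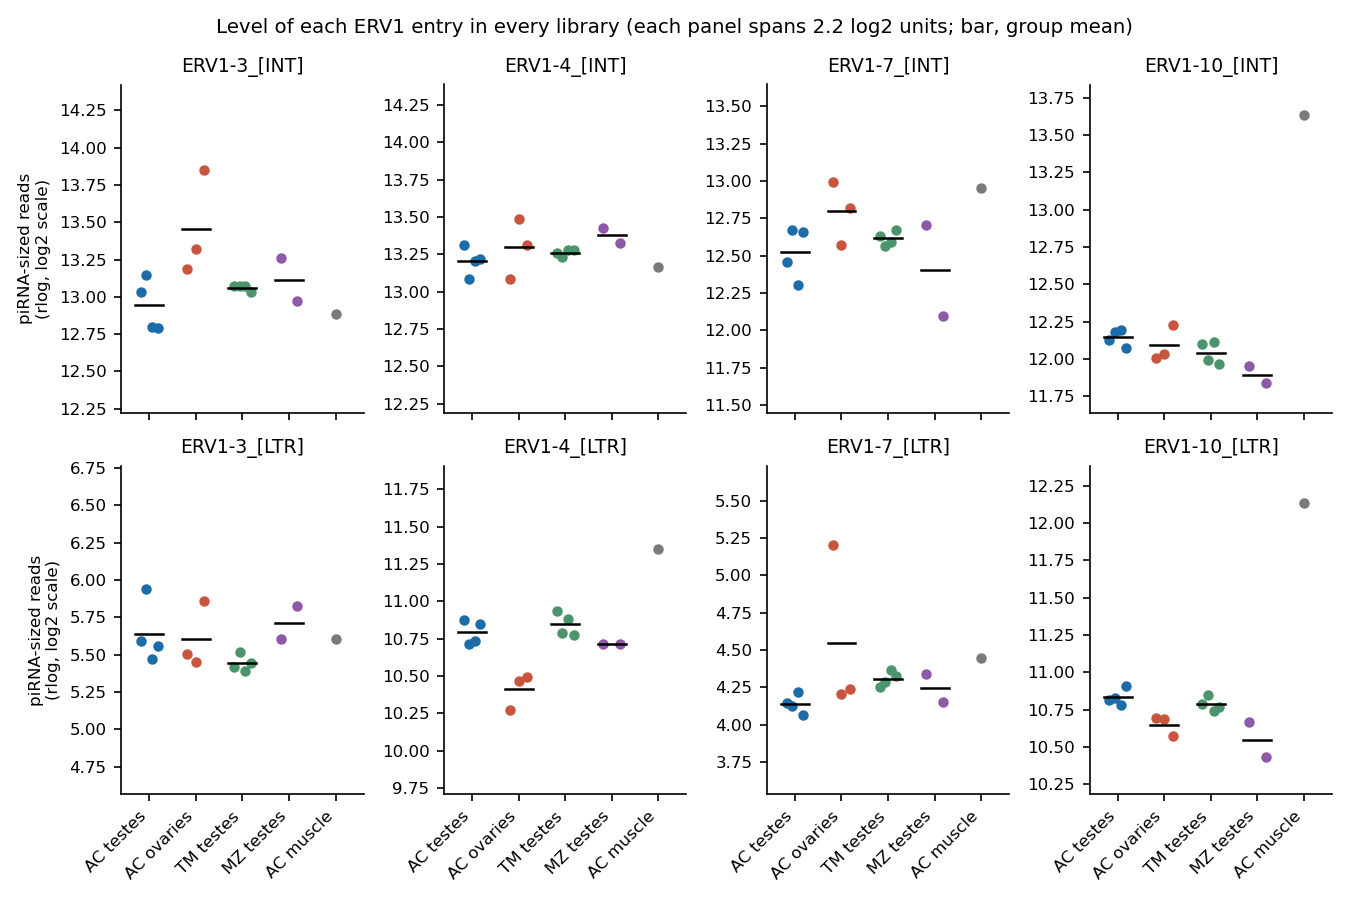
Level of each of the 8 ERV1 entries (rlog, log2 scale) in every library, with internal regions in the upper row and LTRs in the lower row. Points are libraries and bars are group means; each panel spans the same number of log2 units, and the muscle library stands above all gonad libraries for ERV1-4_[LTR], ERV1-10_[INT] and ERV1-10_[LTR].

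The first comparison asked whether piRNA-sized reads over these retroviruses differed between the testes and the ovaries of AC. ERV1-4_[LTR] was higher in AC testes, by 0.38 on the log2 scale (SE 0.098, adjusted p = 0.0118, limma), with means of 10.79 ± 0.082 in AC testes and 10.41 ± 0.12 in AC ovaries (SD, n = 4 and 3). ERV1-3_[INT] was lower in AC testes, with a difference of -0.51 (SE 0.16, adjusted p = 0.0282, limma) and means of 12.94 ± 0.18 in AC testes and 13.45 ± 0.35 in AC ovaries (SD, n = 4 and 3). The members called were thus 1 of 8 higher and 1 of 8 lower, where 20.8% of the 554 entries tested were called higher and 21.3% lower. In tissue pieces, a change in the number of germ cells and a change in the reads per cell cannot be told apart.

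The call of ERV1-3_[INT] was lost without AC ovaries replicate 3 (difference -0.31, adjusted p = 0.0675, limma), without AC testes replicate 3 (-0.46, adjusted p = 0.0724) and without AC testes replicate 4 (-0.46, adjusted p = 0.0684). It was also lost when libraries were scaled to their TE-mapping total (-0.13, adjusted p = 0.587), and its direction turned when they were scaled to all 24 to 35 nucleotide reads (0.85, adjusted p = 0.16). ERV1-4_[LTR] was higher in AC testes in all 16 alternatives and past the threshold in 15 of them, with differences from 0.31 to 1.74.

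The remaining 6 members did not pass the test between the AC organs. Their differences were 0.18 for ERV1-10_[LTR] (adjusted p = 0.113, limma), 0.054 for ERV1-10_[INT] (0.634), 0.035 for ERV1-3_[LTR] (0.879), -0.091 for ERV1-4_[INT] (0.508), -0.27 for ERV1-7_[INT] (0.108) and -0.41 for ERV1-7_[LTR] (0.167). The values of ERV1-10_[LTR] did not overlap between the organs, as was so for 3 of the 8 members and for 48.2% of all entries. ERV1-7_[INT] was called lower in AC testes once AC ovaries replicate 2 was left out (difference -0.39, adjusted p = 0.0416, limma), which brought the members called lower to 2.

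Over the 4 internal members the median difference was -0.18, against -0.24 over the 162 internal entries tested, of which 15 were called higher and 66 lower. Over the 4 LTR members the median was 0.11, against -0.036 over 155 LTR entries, of which 17 were called higher and 16 lower. Of the 12 other ERV1 entries, none was called higher and 6 were called lower in AC testes, with a median difference of -0.26. Among them ERV1-9_[INT] differed by -0.85 (adjusted p = 0.000497, limma) and ERV1-2_[INT] by -0.50 (adjusted p = 0.00127, limma), the 2 with the largest differences.

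These counts depend on how libraries are scaled. With each library scaled to its TE-mapping total, the median difference over all entries between AC testes and AC ovaries moved to 0.37, and 267 entries were called higher and 28 lower, against 115 higher and 118 lower with the authors' size factors. Without NA-DNA-22 in that total, the median was 0.096 and 153 entries were called higher and 87 lower. Scaled to all 24 to 35 nucleotide reads it moved to 1.35, with 304 called higher and 1 lower. The members called were 3 higher and 0 lower under the TE-mapping total, 2 higher and 0 lower without NA-DNA-22 in it, and 5 higher and 0 lower under all 24 to 35 nucleotide reads.

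Such scalings shift all rlog values of a library alike, so they cancel in the difference between internal region and LTR. How far the authors' size factors and the rlog shrinkage bear on this difference was not tested. In all 4 families and all libraries more reads fell on the internal entry than on the LTR entry, with no allowance for length. The mean over the 13 gonad libraries was 8.29 log2 units for ERV1-7, 7.54 for ERV1-3, 2.56 for ERV1-4 and 1.33 for ERV1-10. Over the 156 families with both entries the median was 3.05 and the quartiles were 2.31 and 4.28. ERV1-7 was number 3 and ERV1-3 number 5 from the top, while ERV1-4 was number 109 and ERV1-10 number 143. Among the other ERV1 families only ERV1-2, at 7.52, had a difference of the size of those of ERV1-3 and ERV1-7.

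On the linear scale the internal entry took 99.3% to 99.6% of the values of ERV1-3 in the gonads and 99.6% to 99.7% of those of ERV1-7. It took 83.3% to 89.1% of the values of ERV1-4 and 68.8% to 75.9% of those of ERV1-10. The LTR was therefore a sizeable part of the reads in ERV1-4 and ERV1-10 only.

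The internal minus LTR difference of ERV1-4 was 2.43, 2.37, 2.47 and 2.37 in AC testes and 2.82, 3.02 and 2.82 in AC ovaries. It was 2.32, 2.44, 2.39 and 2.503 in TM testes, 2.71 and 2.61 in MZ testes and 1.82 in AC muscle. AC testes lay below AC ovaries by -0.48 (SE 0.082, adjusted p = 0.00131, limma), without overlap. AC testes and TM testes had nearly the same mean (2.41 ± 0.048 and 2.42 ± 0.077, SD, n = 4 each), and both MZ libraries lay between these and the ovaries.

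In ERV1-3 the difference was 7.44, 7.21, 7.33 and 7.24 in AC testes and 7.68, 7.87 and 7.99 in AC ovaries. It was 7.66, 7.55, 7.68 and 7.59 in TM testes, and 7.65 and 7.15 in MZ testes. AC testes again lay below AC ovaries, by -0.54 (SE 0.15, adjusted p = 0.0165, limma), and the call was lost without AC ovaries replicate 3 (-0.47, adjusted p = 0.0559). The LTR entry of this family rests on 8.3 to 40.2 rough reads in the ovaries, and the part of the rlog shrinkage in this difference was not tested.

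ERV1-10 and ERV1-7 did not pass the test between the AC organs. ERV1-10 had 1.31, 1.36, 1.41 and 1.17 in AC testes and 1.32, 1.35 and 1.66 in AC ovaries, a difference of -0.13 (adjusted p = 0.436, limma). ERV1-7 had 8.31, 8.54, 8.08 and 8.60 in AC testes and 7.79, 8.37 and 8.58 in AC ovaries, a difference of 0.14 (adjusted p = 0.66, limma). Of the 4 families, 0 were thus called higher and 2 lower in AC testes, where 4.55% of the 154 families tested were called higher and 24% lower. No overlap was seen in 2 of the 4 families and in 33.8% of all 154. The median change was -0.30 over the 4 families and -0.17 over all 154, and 3 of the 6 other ERV1 families were called lower, with a median of -0.41.

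**Figure D3:**
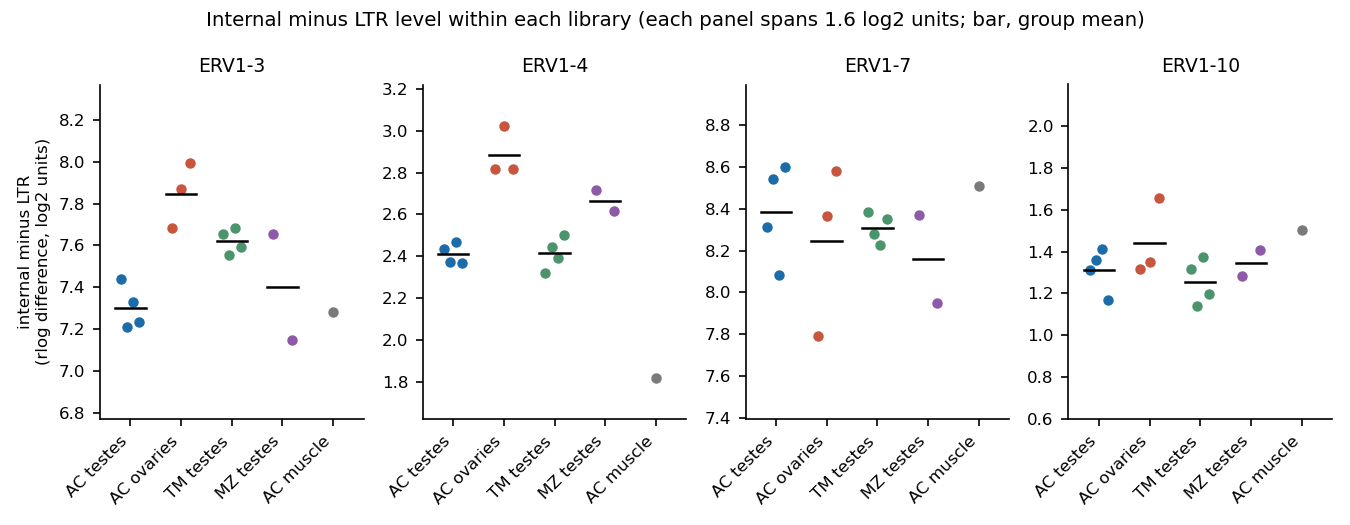
Internal minus LTR level (rlog difference, log2 units) of ERV1-3, ERV1-4, ERV1-7 and ERV1-10 in every library. Points are libraries and bars are group means; in ERV1-3 and ERV1-4 all AC testes libraries lie below all AC ovary libraries, and in ERV1-3 they also lie below all TM testes libraries.

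The remaining comparisons asked whether the testes of these closely related Lake Malawi species differed, and AC ovaries were not tested against TM or MZ testes. They share libraries: AC testes enter 2 of them as well as the comparison with ovaries, and TM and MZ testes enter 2 each. Between AC and TM testes the members were close, with differences from -0.17 to 0.20 and a median of -0.053, against -0.016 over all entries. ERV1-7_[LTR] was lower in AC testes (difference -0.17, SE 0.057, adjusted p = 0.0391, limma), with means of 4.14 ± 0.064 in AC testes and 4.31 ± 0.050 in TM testes (SD, n = 4 each), and was the only member called. That made 0 of 8 higher and 1 of 8 lower, where 20.9% of all entries were called higher and 21.5% lower.

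The call of ERV1-7_[LTR] was not stable. It was lost in 12 of 17 alternatives and in 6 of the 8 that left out 1 library, namely AC testes replicate 1 or 4 or any 1 of the TM testes libraries, with adjusted p between 0.0602 and 0.113 in those. Without AC testes replicate 2 it held, and ERV1-3_[INT] was called lower in AC testes too (difference -0.19, adjusted p = 0.0386, limma). The largest positive difference was that of ERV1-3_[LTR], at 0.20 (SE 0.0997, adjusted p = 0.135, limma), and its values overlapped between both species.

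The internal minus LTR difference of ERV1-3 was lower in AC testes than in TM testes, by -0.32 (SE 0.085, adjusted p = 0.0111, limma). The means were 7.30 ± 0.10 in AC testes and 7.62 ± 0.058 in TM testes (SD, n = 4 each), without overlap, as was so for 35.1% of the 154 families tested. With the mean of TM testes replicates 1 and 3 as 1 library, the difference was -0.30 (adjusted p = 0.0388, limma). Neither entry of ERV1-3 was called on its own in this comparison: ERV1-3_[INT] differed by -0.12 (adjusted p = 0.236) and ERV1-3_[LTR] by 0.20 in the opposite direction. The call held in all 12 alternatives that could test it, with differences from -0.36 to -0.28. The other 3 families differed by -0.0048 to 0.074, which gave 0 families higher and 1 lower of 4, where 22.7% of families were called higher and 16.2% lower.

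The largest ERV1 differences between AC and TM testes lay outside the members. Of the 12 other ERV1 entries, 3 were called higher and 2 lower in AC testes. ERV1-8_[LTR] was higher by 0.53 (adjusted p = 0.00297, limma) and ERV1-8_[INT] by 0.51 (adjusted p = 0.000596), while ERV1-6_[LTR] was lower, at -0.39 (adjusted p = 0.0073), and so was ERV1-2_[LTR], at -0.19 (adjusted p = 0.0131). Whether the members and the other ERV1 entries differ in this respect was not tested.

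Between AC and MZ testes no member was called in either direction by limma, where 7.22% of all entries were called higher and 9.03% lower. At an unadjusted p under 0.05, 2 members were higher and none lower. These were both entries of ERV1-10. ERV1-10_[INT] had means of 12.14 ± 0.054 in AC testes and 11.90 ± 0.079 in MZ testes (SD, n = 4 and 2), a difference of 0.25 (SE 0.077, adjusted p = 0.0599, limma). ERV1-10_[LTR] differed by 0.28 (SE 0.098, adjusted p = 0.0823, limma). All 4 AC libraries were above both MZ libraries for each, and 4 of the 8 members and 41.9% of all entries had no overlap. Both passed the threshold when all gonad groups were fitted together (adjusted p = 0.0402 and 0.0255, limma).

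The other members differed between AC and MZ testes by -0.17 to 0.12, and the median over the 8 was 0.0039, against -0.018 over all entries. Of the other ERV1 entries, ERV1-1_[LTR] alone was called, higher in AC testes by 0.38 (adjusted p = 0.0466, limma). In the internal minus LTR difference 0 of the 4 families were called in either direction, where 0.649% of families were called higher and 4.55% lower. ERV1-4 came nearest, with a difference of -0.25 (SE 0.086, adjusted p = 0.0855, limma) and no overlap, and it was the only one of the 4 with an unadjusted p under 0.05. Over all families tested, 33.1% had no overlap. Scaled to all 24 to 35 nucleotide reads, the median over all entries moved to 0.37, with 314 entries higher and 9 lower against 40 and 50, and 6 members were then called higher. Scaled to the TE-mapping total, 67 entries were called higher and 34 lower, among them ERV1-10_[INT] and ERV1-10_[LTR] as the 2 members called higher.

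Between TM and MZ testes again no member was called by limma, where 10.5% of all entries were called higher and 12.8% lower. At an unadjusted p under 0.05, 1 member was higher and 1 lower. ERV1-10_[LTR] was higher in TM testes by 0.24 (SE 0.079, adjusted p = 0.0665, limma), and ERV1-3_[LTR] differed by -0.27 (SE 0.086, adjusted p = 0.0535, limma), with means of 5.44 ± 0.054 in TM testes and 5.72 ± 0.15 in MZ testes (SD, n = 4 and 2). The median over the members was 0.098, against 0.024 over all entries, and 5 of the 8 members had no overlap, against 46.4% of all entries.

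Both MZ libraries differed from each other, and leaving out 1 of them changed the differences of the members between TM and MZ testes. Without MZ testes replicate 1, ERV1-10_[LTR] differed by 0.35, ERV1-7_[INT] by 0.52 and ERV1-3_[LTR] by -0.38. Without MZ testes replicate 2, ERV1-3_[INT] differed by -0.20 and ERV1-4_[INT] by -0.17. Each of these fits sets a single MZ library against the TM libraries and assumes that it varies as they do.

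For the internal minus LTR difference between TM and MZ testes, 0 of the 4 families were called, where 9.09% of families were called higher and 15.6% lower. ERV1-4 differed by -0.25 (SE 0.083, adjusted p = 0.0513, limma) without overlap, as was so for 46.8% of families, and was the only one of the 4 with an unadjusted p under 0.05. It was called without TM testes replicate 4 (-0.28, adjusted p = 0.0292, limma), where 15 of the 154 families tested were called higher and 24 lower. Without MZ testes replicate 2, which leaves 1 MZ library, the difference of ERV1-4 was -0.30. Without MZ testes replicate 1, ERV1-3 differed by 0.47 and ERV1-7 by 0.36. Of the other ERV1 entries, ERV1-1_[LTR] was higher in TM testes by 0.37 (adjusted p = 0.0275, limma) and ERV1-6_[LTR] by 0.28 (adjusted p = 0.0495), while ERV1-8_[LTR] was lower, at -0.56 (adjusted p = 0.0106), and so was ERV1-8_[INT], at -0.29 (adjusted p = 0.022). Scaled to all 24 to 35 nucleotide reads, the median over all entries moved to 0.38, with 377 entries higher and 14 lower against 58 and 71, and 7 members were called higher. Scaled to the TE-mapping total, 76 entries were called higher and 57 lower, and ERV1-10_[LTR] was the 1 member called, higher in TM testes.

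**Figure D4:**
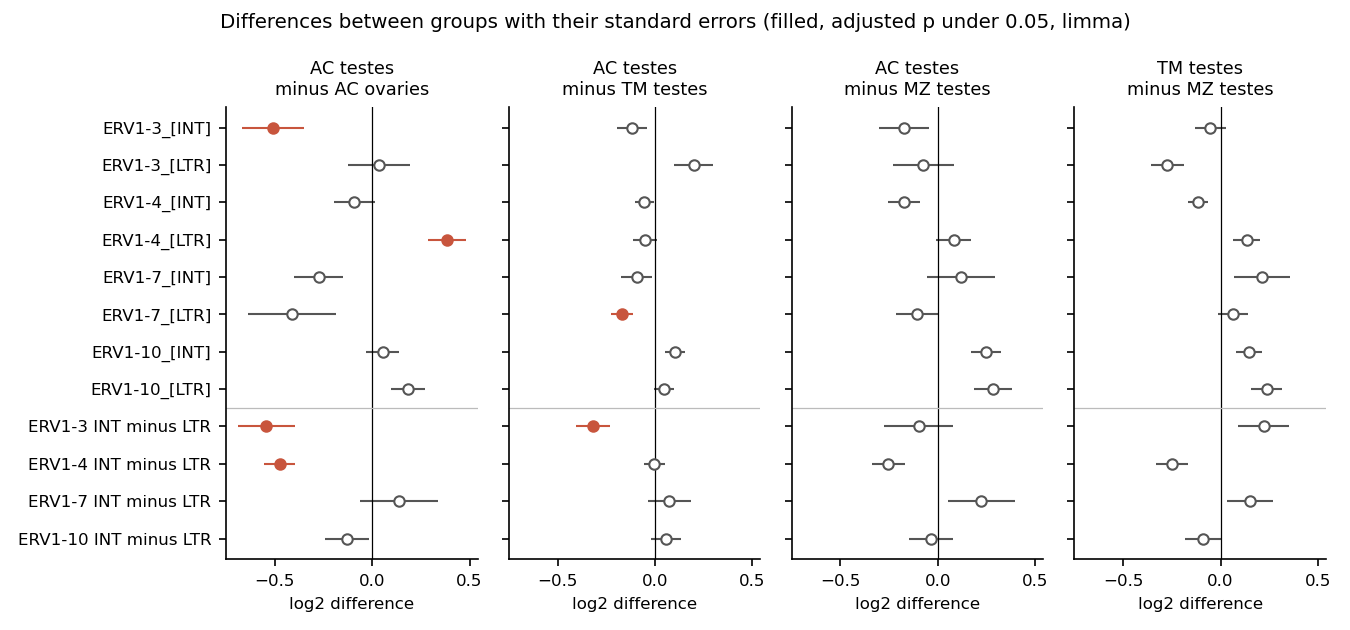
Log2 difference of each ERV1 entry (upper rows) and of the internal minus LTR difference of each family (lower rows) in the 4 comparisons. Points are limma estimates, bars their standard errors and filled points have an adjusted p under 0.05: 2 entries and 2 families between AC testes and AC ovaries, 1 entry and 1 family between AC and TM testes, and none in the comparisons with MZ testes.

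A single library of AC muscle gives the somatic level, without a replicate and therefore without a test. The study sequenced muscle as a control and found no prominent sRNA population of piRNA length with piRNA signatures in it. Reads of this size in muscle are therefore not taken as piRNAs here. Each level is relative to the other TE reads of its own library, so a higher value in muscle is not a larger amount of sRNA. ERV1-10_[INT] was at a mean of 12.12 in the 7 AC gonad libraries and at 13.64 in muscle, a difference of -1.52, and ERV1-10_[LTR] was at 10.75 in the gonads and at 12.14 in muscle, a difference of -1.38. ERV1-4_[LTR] was at 10.63 in the gonads and at 11.35 in muscle, a difference of -0.72. In these 3 entries muscle lay above every AC gonad library. In ERV1-3_[INT], ERV1-4_[INT] and ERV1-7_[INT] it lay within their range, with differences from -0.31 to 0.28. ERV1-3_[LTR] and ERV1-7_[LTR] stood for less than 1 read in muscle, so their position is not read. Over all 557 entries, rare ones included, muscle lay above the AC gonads in 29.6%, within their range in 39.3% and below it in 31.1%, with a median gonad minus muscle difference of 0.079.

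The depth of the muscle library limits these values. ERV1-10_[INT] corresponded there to roughly 63.1 reads, ERV1-10_[LTR] to 22.3 and ERV1-4_[LTR] to 12.9. The other internal entries had roughly 37.4 to 45.5 reads, and the rlog draws such counts towards the gonad libraries. The internal minus LTR difference in muscle was 1.82 for ERV1-4, lower than in any gonad library, and 1.50 for ERV1-10, within the gonad range. A muscle value below every gonad library was also seen in ERV1-1 (1.52), ERV1-6 (3.81) and ERV1-8 (3.43). In muscle the LTR entries of ERV1-6 and ERV1-8 rest on roughly 1.77 and 1.21 reads. The remaining other ERV1 families lay within their gonad range. How often muscle lies below all gonad libraries was not counted over all families. Among the other ERV1 entries muscle lay above the AC gonads in 1 of 12 and below them in 4.

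How closely the internal region and the LTR followed each other across libraries differed between the families. Pearson's r between both entries over the 13 gonad libraries was 0.59 for ERV1-7, 0.40 for ERV1-10, 0.39 for ERV1-3 and 0.042 for ERV1-4, against a median of 0.51 over 154 families. In ERV1-7, AC ovaries replicate 1 was the highest gonad library for both entries, and its LTR value rests on roughly 6.74 reads. Over the 10 testes libraries alone it was 0.29 for ERV1-7, 0.69 for ERV1-10, 0.20 for ERV1-3 and 0.0071 for ERV1-4. No median over all families was taken for the testes alone. These are descriptions: the libraries fall into 4 groups, and both entries of a family share the libraries, their depth and their scaling.

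The entries most like each member over the 13 gonad libraries were taken from the whole table. ERV1-3_[INT] was most like L2-8 (r = 0.90) and Gypsy-96_[INT] (0.89), ERV1-4_[INT] like Pao-2_[INT] (0.78) and LTR-10 (0.72), and ERV1-7_[INT] like ERV1-6_[INT] (0.85) and Gypsy-42_[INT] (0.84). ERV1-10_[INT] was most like hAT-Ac-7 (0.87) and hAT-Ac-11 (0.82). Among the LTRs, ERV1-3_[LTR] was most like Gypsy-88_[LTR] (0.75) and CMC-EnSpm-9 (0.68), and ERV1-4_[LTR] like hAT-Tip100-2 (0.92) and Pao-12_[LTR] (0.92). ERV1-7_[LTR] was most like Gypsy-24_[LTR] (0.87) and TcMar-Tc1-9 (0.84), and ERV1-10_[LTR] like hAT-Charlie-2 (0.91) and hAT-Ac-4 (0.85). Over the 10 testes libraries alone, r for these pairs ran from 0.52 (ERV1-4_[LTR] with Pao-12_[LTR]) to 0.95 (ERV1-10_[LTR] with hAT-Ac-4). The gonad values of ERV1-7_[LTR] include AC ovaries replicate 1, which rests on roughly 6.74 reads.

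In no case was the other entry of the same family among the 2 most like entries. How often this is so over all families was not counted. The r of a most like entry is the highest found in a search over many entries. It is therefore raised by selection and cannot be set against the median r of 0.51 between both entries over 154 families.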

How the data were processed

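sRNA libraries of AC, TM and MZ were sequenced by the authors (cutadapt 1.15, STAR 2.5.4b, featureCounts 1.6.0, DESeq2, per the labels and the paper's methods). Reads between 24 and 35 nucleotides long were aligned by the authors to the AC genome fAstCal1.2, with up to 2 mismatches and 100 loci and 1 alignment kept per read. They were counted over the curated TE annotation without regard to strand, and the authors deposited log2 values (rlog). The other deposited tables use TE identifiers without ERV1 names and were not used. Counts and depth are not in the file. The NA-DNA-22 entry and the totals of 24 to 35 nucleotide and assigned reads from the study's mapping statistics enter alternatives and rough read numbers only.

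Groups were compared with limma 3.58.1 in R 4.3.3, moderated with a mean trend and two-sided, with only the libraries of both groups in a fit. The Benjamini-Hochberg adjustment ran over all entries or families tested, with a threshold of 0.05 for the adjusted p. Tested entries had a mean rlog of at least 3.32, which is 10 on the linear scale. The fit was also run on simulated data with independent normal noise. Those data did not model rlog shrinkage or shifts between libraries, so the fit was not assessed for these. The labels give no sequencing batch. The limma p-values set a group difference against the spread between these libraries, moderated over all entries or families tested. The alternatives were no minimum or 100, a pseudocount of 10, 3 other scalings, 1 fit over all gonad groups, no variance trend, a replicate block, TM testes replicates 1 and 3 as 1 library, and each library left out in turn. The differences over entries between TM testes replicates 1 and 3 had an SD of 0.051, against 0.12 to 0.18 in the other TM pairs. Their mean square was 9.44 times the approximate counting variance, which does not show that they come from separate animals. Both were counted, as the labels number them separately, and n = 4 for TM testes rests on this.

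The text names the 8 members, in each comparison the 2 other ERV1 entries with the largest called difference in each direction, and the 2 entries most like each member. Members, lists and tests were chosen with earlier results of these data known. Tables and figures were made with Python 3.11.15, pandas 2.3.3, numpy 2.4.6 and matplotlib 3.10.9.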

Additional observations from a re-analysis of the deposited data

Results flagged for a closer look

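Of the 24 groups of values tested for an outlying library (8 entries and 4 internal minus LTR differences, in AC testes and in TM testes), 1 was flagged: ERV1-3_[INT] in TM testes replicate 4, at 13.04, where the other TM libraries were at 13.07. Chance flags about 1 group in 20, and the whole range in TM testes was 0.037 log2 units, so the gap is small beside the spread in AC testes (range 0.35).

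The internal minus LTR difference, a contrast within each library, differed between groups by a limma test in 3 cases. Between AC testes and AC ovaries it changed by -0.54 in ERV1-3 (adjusted p = 0.0165) and by -0.48 in ERV1-4 (adjusted p = 0.00131), and between AC testes and TM testes by -0.32 in ERV1-3 (adjusted p = 0.0111), lower in AC testes in each case and without overlap of libraries. Both calls between the AC organs were lost with the replicate block, and that of ERV1-3 also without AC ovaries replicate 3. Of the 154 families tested, 24% were called lower in AC testes than in AC ovaries, and 33.8% had no overlap. Between AC and TM testes the shares were 16.2% and 35.1%.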

How the results depend on the processing

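Of 684 alternative values of the 48 single differences, 594 kept their direction and side of the threshold, 22 fell short of it, 34 passed it and 34 changed sign, the cause of which was not tested. Counts of members called are given here as totals. Between AC testes and AC ovaries (2 entries) the count was 3 scaled to the TE-mapping total, 2 (both higher) without NA-DNA-22 and 5 scaled to 24 to 35 nucleotide reads, and 1 to 3 with a library left out. For internal minus LTR (2 families) it was 1 with a minimum of 100, which leaves out ERV1-3 and ERV1-7, and 1 to 2 with a library left out. Between AC and TM testes (1 entry) it was 0 with a minimum of 100, which leaves out ERV1-7_[LTR], with a pseudocount of 10, scaled to the TE-mapping total or to 24 to 35 nucleotide reads (it stayed 1 without NA-DNA-22 in the total), in 1 fit over all gonads, or TM testes replicates 1 and 3 as 1 library, and 0 to 2 with a library left out. The internal minus LTR count (1) was 0 with a minimum of 100, which leaves out ERV1-3 and ERV1-7. Between AC and MZ testes (0) it was 2 scaled to the TE-mapping total, 6 scaled to 24 to 35 nucleotide reads and 2 in 1 fit. Between TM and MZ testes (0) it was 1 with no minimum, 1 scaled to the TE-mapping total, 7 scaled to 24 to 35 nucleotide reads, 1 without a variance trend and 0 to 3 with a library left out. The internal minus LTR count (0) was 1 with a pseudocount of 10 and 0 to 2 with a library left out.

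Scaled to 24 to 35 nucleotide reads, signs turned between AC testes and AC ovaries for ERV1-3_[INT] (0.85), ERV1-4_[INT] (1.27), ERV1-7_[INT] (1.09) and ERV1-7_[LTR] (0.95), between AC and MZ testes for ERV1-4_[INT] (0.22), ERV1-3_[INT] (0.22), ERV1-3_[LTR] (0.31) and ERV1-7_[LTR] (0.28), and between TM and MZ testes for ERV1-4_[INT] (0.23), ERV1-3_[INT] (0.30) and ERV1-3_[LTR] (0.078). Scaled to the TE-mapping total they turned for ERV1-4_[INT] (0.29, or 0.012 without NA-DNA-22) and ERV1-7_[INT] (0.10) between the AC organs. With a library left out, differences crossed 0 between AC testes and AC ovaries for ERV1-4_[INT] (-0.20 to 0.0050), ERV1-3_[LTR] (-0.065 to 0.16) and internal minus LTR of ERV1-7 (-0.090 to 0.30), and between AC and TM testes for that of ERV1-4 (-0.036 to 0.025). Between AC and MZ testes they did for ERV1-7_[INT] (-0.19 to 0.42), ERV1-3_[LTR] (-0.18 to 0.035) and internal minus LTR of ERV1-10 (-0.096 to 0.026) and ERV1-3 (-0.35 to 0.16). Between TM and MZ testes they did for ERV1-3_[INT] (-0.20 to 0.092), ERV1-7_[INT] (-0.093 to 0.52), ERV1-7_[LTR] (-0.032 to 0.16) and internal minus LTR of ERV1-3 (-0.034 to 0.47) and ERV1-7 (-0.061 to 0.36). None of the differences that changed sign was called in the main comparison except ERV1-3_[INT] between the AC organs.

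The replicate numbers were not taken as pairs, and ovaries and testes come from different animals. Deviations of same-numbered AC testes and AC ovary libraries correlated at -0.10 to -0.047. Those of AC and TM testes correlated at 0.016 to 0.18, with a mean of 0.13, against a mean of -0.041 for different numbers. Not every library correlated best with its own number. Whether the numbers follow a processing batch was not tested. With the replicate block the members called between AC testes and AC ovaries were 0 entries and 0 families, and between AC and TM testes 0 entries and 1 family. The block turned the sign of ERV1-3_[LTR] between AC and MZ testes (0.053) and changed no other count of members called, although over all entries 15 were called higher and 33 lower there, against 40 and 50 without the block, and 5 and 16 between TM and MZ testes, against 58 and 71.

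The precision is limited by the few reads of ERV1-3_[LTR] and ERV1-7_[LTR] in AC ovaries, by the single shallow muscle library and by the 2 MZ libraries, without either of which the calls over all entries between AC and MZ testes fell to 3 higher and 5 lower (without replicate 1) or 2 and 3 (without replicate 2).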
